A study of Mus musculus with 12 samples.

Results

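Expression of 10 genes that encode the histone H3 lysine methyltransferases of the Kmt2 and Setd1 families, the H3K27 demethylases Kdm6a and Kdm6b and the acetyltransferases Ep300 and Crebbp was followed in mouse bone marrow progenitors of 4 genotypes. The genes were taken by symbol from the 55450 genes of the count table, and all 10 were found and passed the filter on low counts that left 14346 genes for testing. The members were chosen by symbol, but with the log2 fold changes between the genotypes of these same libraries already known, and which contrast was looked at is not recorded. Every fold change and call of the 10 genes below therefore describes these libraries and supports nothing beyond them.

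Donor cells that lacked lineage markers and carried the receptor Kit were sorted from the marrow of recipients in a competitive transplant, and their ribosome-depleted total RNA was sequenced in 12 libraries. Of these, 3 carried the label WT, 3 Tet2 KO (Tet2KO below), 3 Id1 KO (Id1KO) and 3 Tet2 KO + Id1KO (dKO). All 4 groups were donor cells from transplanted mice. The alleles, the age of donors and recipients, the time after transplant and the number of animals pooled are not given in the sources used here. Tet2 encodes a dioxygenase that oxidises methylated cytosine in DNA, and Id1 a protein that keeps basic helix-loop-helix factors off DNA. The design asks what loss of Tet2 changes and whether loss of Id1 alters it.

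Methylation of lysine 4 on histone H3 marks active promoters and enhancers. In mammals it is placed by COMPASS complexes, each built on 1 of 6 catalytic subunits: Setd1a and Setd1b act broadly at promoters, Kmt2a and Kmt2b at selected promoters such as those of Hox genes, and Kmt2c and Kmt2d mainly at enhancers. Kdm6a travels with Kmt2c and Kmt2d and removes the repressive methylation of lysine 27, Kdm6b does so in a separate protein, and Ep300 and Crebbp acetylate the same lysine at active enhancers. In blood, KMT2A is rearranged in acute leukemia, and Kmt2d, Kdm6a, Ep300 and Crebbp are known as tumour suppressors of hematopoietic cells.

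RefSeq promoters (GRCm38.p6) were on hand for 7 of the 10 genes. The 250 bases upstream of the start in that table are shown for 2 genes that were higher with the Tet2KO label, Kmt2c (chr5:25498784-25499033, minus strand) and Kmt2d (chr15:98871206-98871455, minus strand), and for 1 that was not, Kdm6a (chrX:18162325-18162574, plus strand). They run 5′ to 3′ with each CG dinucleotide, the target of DNA methylation, in capitals.
Kmt2c: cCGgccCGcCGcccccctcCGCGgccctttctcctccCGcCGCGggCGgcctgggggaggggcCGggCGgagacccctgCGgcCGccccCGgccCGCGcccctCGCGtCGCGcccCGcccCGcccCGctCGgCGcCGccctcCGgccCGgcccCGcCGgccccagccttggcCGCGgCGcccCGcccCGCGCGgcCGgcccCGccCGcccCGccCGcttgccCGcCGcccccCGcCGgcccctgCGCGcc
Kmt2d: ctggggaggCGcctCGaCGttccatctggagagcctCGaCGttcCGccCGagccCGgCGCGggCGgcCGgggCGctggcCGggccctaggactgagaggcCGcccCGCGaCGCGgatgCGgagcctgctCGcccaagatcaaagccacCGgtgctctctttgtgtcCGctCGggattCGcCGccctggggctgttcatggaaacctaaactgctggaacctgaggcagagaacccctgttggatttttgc
Kdm6a: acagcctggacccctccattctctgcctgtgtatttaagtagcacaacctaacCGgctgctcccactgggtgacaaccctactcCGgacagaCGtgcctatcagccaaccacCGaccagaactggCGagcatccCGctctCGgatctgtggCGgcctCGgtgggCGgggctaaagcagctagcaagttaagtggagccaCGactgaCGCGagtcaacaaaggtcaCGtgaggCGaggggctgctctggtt
All 7 windows are rich in CG, with 48 in Kmt2c, 26 in Kmt2d, 25 in Setd1a and 15 in Kdm6a, and the others held 29 (Kmt2a), 25 (Ep300) and 44 (Crebbp). The median over 32851 promoters of this length was 6, and 17.9% held at least 20. The windows of Setd1a, Ep300 and Crebbp lie inside the gene as GENCODE places it, downstream of its outermost start, and that of Kmt2a overlaps the gene's edge. Both strands were searched for the E-box forms named in this paragraph only. Helix-loop-helix factors bind E-boxes. Other forms were not searched, so a window without a match may still hold an E-box. Of all promoters, 13.0% hold the E-box CAGCTG, 17.2% the variant with GG at its centre (CAGGTG) and 6.02% the variant CACGTG. Sites of CREB (TGACGTCA, in 1.55% of promoters), ETS (CCGGAAG, in 6.91%) and NRF1 (in 0.782%) were not found in the 7 genes. Among the 7 genes, Setd1a held CAGCTG at bases 19 to 24 and CAGGTG at 207 to 212, and Kdm6a held CACGTG at 224 to 229, counted from the 5′ end of the window, with no overlap between them. A match describes letters in this window only.

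Total estimated counts ran from 15706407 to 18386991 in the 6 libraries with a Tet2-null label and from 17994745 to 19959183 in the other 6. A member gene had between 177 (Kdm6b) and 5884 (Kmt2d) counts in a library. The titles give the 3 libraries of a genotype 1 sample number, so they may be repeats of 1 cell sample, and each p-value compares these libraries, not mice. All 12 pairs of libraries within a genotype differed by more than sampling noise and were kept apart. The targeted genes did not bear out the labels. In counts per 1000000 scaled counts of the library (CPM), Tet2 stood at 130 ± 2.51 (SD, n = 3) under the label Tet2KO and 118 ± 3.08 under dKO, but at 99.3 ± 2.2 under WT and 92.0 ± 1.55 under Id1KO. Id1 stood at 3.96 ± 0.342 under Id1KO and 3.93 ± 0.501 under dKO, but at 3.86 ± 0.421 under Tet2KO and 1.47 ± 0.268 under WT. A count per gene does not show which exons were read, so an allele that removes part of a gene is not checked by it, and groups are named below by label only. The gate's markers were as the sort requires, with Kit at 314 to 377 CPM and Cd3e at 0 to 0.0613, while Itgam (24 to 35.9) was present in every library.

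With the Tet2KO label, 7 of the 10 genes were called higher and 1 lower against WT by edgeR's quasi-likelihood test (adjusted p under 0.05 over all genes tested). Of all genes tested, 32.8% were called in that comparison, 16.6% higher and 16.2% lower. The 10 genes had a median log2 fold change of 0.36, against -0.003 over all genes. The same label on the Id1KO background (dKO versus Id1KO, which shares no library with the first comparison) gave 7 higher and 0 lower, with a median of 0.33, where 19.3% of all genes were called, 10.6% higher and 8.7% lower. The 7 were Kmt2a, Kmt2c, Kmt2d, Setd1b, Kdm6b, Ep300 and Crebbp in both comparisons. The compared libraries did not overlap for 7 genes that were higher and 1 lower in the first comparison (22.9% and 23.1% of all genes) and for 7 higher and 0 lower in the second (17.1% and 16.1%). In a bulk sample, more cells that express a gene and more RNA per cell cannot be told apart.

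**Figure D1:**
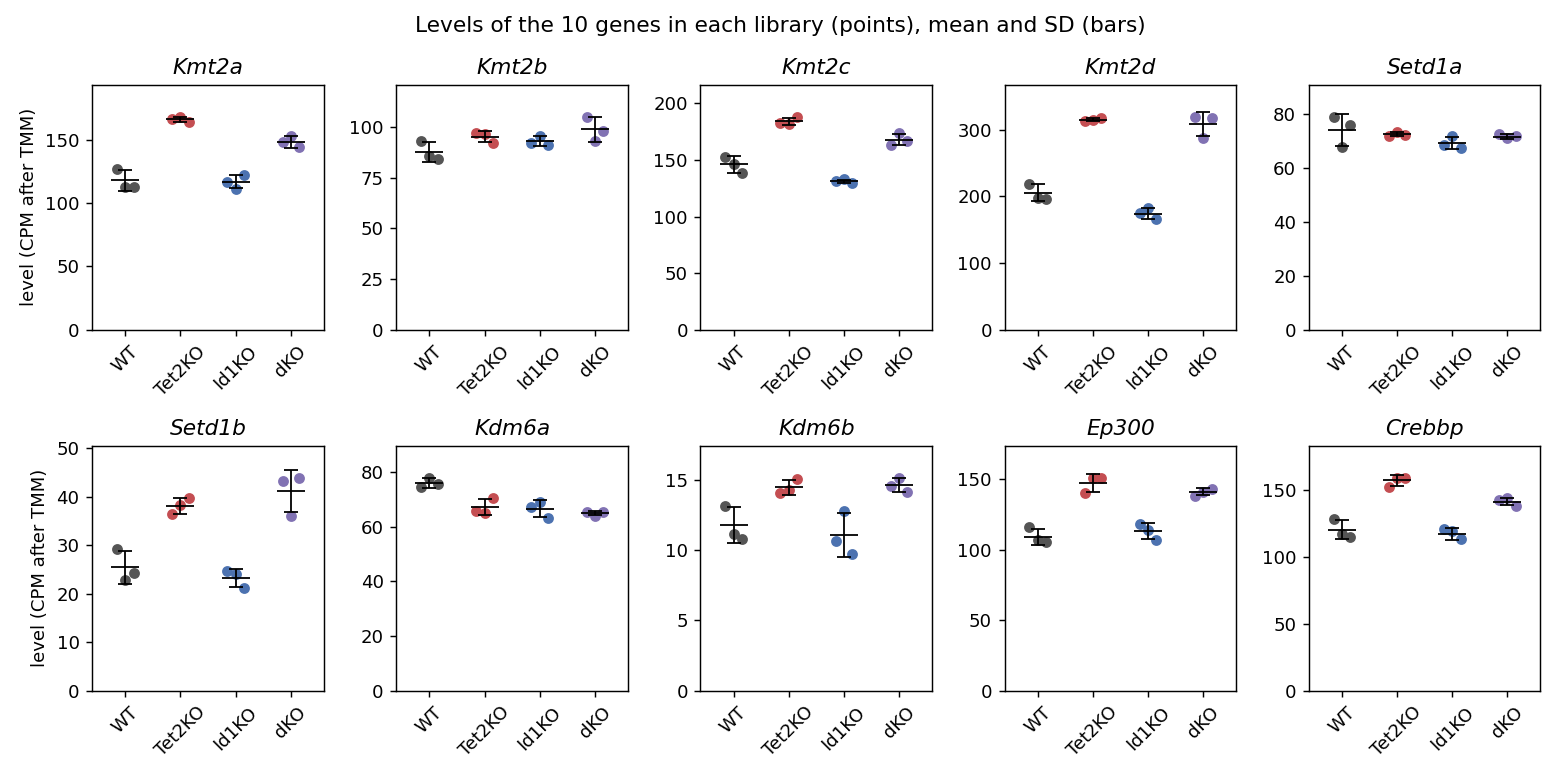
Level of each of the 10 genes (vertical axis, CPM after TMM scaling, from 0) in each library (points) by genotype label (horizontal axis), with the mean and SD of 3 libraries as bars. Kmt2d lies at 313 to 317 CPM in Tet2KO and 196 to 219 in WT, whereas the Setd1a groups overlap.

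Kmt2d (ENSMUSG00000048154.17, chromosome 15, 98831669 to 98871204, GRCm38, 56 merged exons), which encodes an enhancer monomethyltransferase, had the largest log2 fold change of the 10 in Tet2KO versus WT. Its level was 219, 198 and 196 CPM in the libraries labelled WT and 313, 315 and 317 in Tet2KO. In Id1KO it was 175, 182 and 166 CPM, and in dKO 319, 287 and 318. The 6 libraries with a Tet2-null label lay above the 6 without it, with a gap from 219 to 287 CPM. The fit gave log2 fold changes of 0.62 ± 0.043 (SE), 1.54-fold, for Tet2KO over WT and 0.82 ± 0.044, 1.77-fold, for dKO over Id1KO, with adjusted p-values of 1.24e-09 and 4.73e-11 by edgeR.

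Kmt2c (ENSMUSG00000038056.15, chromosome 5, 25271798 to 25498783, 59 merged exons), the paralog of Kmt2d in the same type of complex, went the same way by less. It was at 153, 146 and 138 CPM in WT and 183, 182 and 188 in Tet2KO. The Id1KO libraries held 131, 133 and 130 CPM and the dKO libraries 163, 174 and 167. These groups did not overlap, and the log2 fold changes were 0.34 ± 0.033 and 0.35 ± 0.034 in the same 2 comparisons. Per kilobase of exon, the ratio of Kmt2d to Kmt2c was 1.74 ± 0.0214 (SD, n = 3) in Tet2KO and 1.87 ± 0.163 in dKO, compared with 1.43 ± 0.0424 in WT and 1.35 ± 0.0487 in Id1KO, so the balance between the paralogs lay further toward Kmt2d in all 6 libraries with a Tet2-null label.

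Kmt2a and Kmt2b, which share menin as a partner, differed from each other. Kmt2a (ENSMUSG00000002028.13, chromosome 9, 44803355 to 44881296, 37 merged exons) was at 127, 113 and 113 CPM in WT and 166, 168 and 164 in Tet2KO. It was at 117, 111 and 122 CPM in Id1KO and 148, 153 and 144 in dKO. Every library with a Tet2-null label lay above every library without it, and the log2 fold changes were 0.49 ± 0.041 and 0.35 ± 0.042 in the 2 comparisons. Kmt2b (ENSMUSG00000006307.16, chromosome 7, 30568858 to 30588726, 36 merged exons) was at 93.3, 85.9 and 84.2 CPM in WT and 96.9, 96.4 and 92.0 in Tet2KO, which overlapped. Its log2 fold change of 0.12 ± 0.044 missed the threshold with an adjusted p of 0.0513 by edgeR, and that in dKO versus Id1KO was 0.09 ± 0.044 (adjusted p = 0.187, edgeR). In leave-one-out fits the first of these p-values ran from 0.00878 to 0.18, and 6 of 12 fits called it, so its side of the threshold depends on single libraries. The ratio of Kmt2a to Kmt2b per kilobase was 0.771 ± 0.0139 in WT and 1.0 ± 0.0199 in Tet2KO.

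The Setd1 pair split as well. Setd1b (ENSMUSG00000038384.16, chromosome 5, 123142193 to 123168629, 16 merged exons) was at 29.2, 22.7 and 24.2 CPM in WT and 36.3, 38.2 and 39.7 in Tet2KO. It was at 24.7, 24.1 and 21.2 CPM in Id1KO and 43.3, 36 and 43.9 in dKO. Its log2 fold changes of 0.59 ± 0.084 and 0.82 ± 0.086 in the 2 comparisons were close in size to those of Kmt2d. Setd1a (ENSMUSG00000042308.14, chromosome 7, 127776670 to 127800122, 22 merged exons) was at 79.1, 67.8 and 76.1 CPM in WT and 72, 73.4 and 72.5 in Tet2KO. In dKO it was at 72.6, 71.1 and 71.9 CPM and in Id1KO at 68.7, 72.1 and 67.4. It was the member that no pairwise comparison called, with log2 fold changes from -0.10 to 0.05, and its Tet2KO and dKO libraries lay within the range of WT. The ratio of Setd1b to Setd1a per kilobase was 0.295 ± 0.0121 in Tet2KO and 0.322 ± 0.0316 in dKO, compared with 0.192 ± 0.015 in WT and 0.189 ± 0.0125 in Id1KO. Setd1a shares 3523 exonic bases on its strand with the read-through gene Gm49388, which was at most at 1.01 CPM.

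Both acetyltransferases rose with the Tet2KO label. Ep300 (ENSMUSG00000055024.12, chromosome 15, 81585351 to 81652077, 30 merged exons) was at 116, 107 and 105 CPM in WT and 140, 151 and 151 in Tet2KO. In Id1KO it was at 118, 114 and 107 CPM and in dKO at 138, 141 and 143. Crebbp (ENSMUSG00000022521.10, chromosome 16, 4081328 to 4213997, 30 merged exons) was at 128, 117 and 115 CPM in WT and 152, 159 and 159 in Tet2KO, with 121, 119 and 113 in Id1KO and 142, 144 and 138 in dKO. The groups with and without a Tet2-null label did not overlap for either gene. Log2 fold changes were 0.43 ± 0.04 and 0.31 ± 0.041 for Ep300 and 0.38 ± 0.038 and 0.27 ± 0.039 for Crebbp in the 2 comparisons. Their ratio moved little, since Crebbp per kilobase was 1.12 ± 0.018 times Ep300 in Tet2KO and 1.06 ± 0.0324 times in dKO, compared with 1.16 ± 0.00951 in WT and 1.09 ± 0.0142 in Id1KO. With 64 genes elsewhere, Crebbp has segments of 106 to 201 bp in common (identity 95% to 98.3%), so some of its counts may be divided among them.

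The 2 demethylases moved in opposite directions against WT in Tet2KO and dKO. In Id1KO versus WT both values were negative, and that of Kdm6b (-0.08 ± 0.097) was not called. Kdm6b (ENSMUSG00000018476.7, chromosome 11, 69398508 to 69413675, 23 merged exons), the lowest of the 10 genes, was at 13.2, 11.2 and 10.8 CPM in WT and 14.1, 14.3 and 15.1 in Tet2KO. It was at 10.7, 12.8 and 9.74 CPM in Id1KO and 14.6, 15.2 and 14.2 in dKO. The log2 fold changes were 0.30 ± 0.094 (adjusted p = 0.0169, edgeR) and 0.40 ± 0.095 (adjusted p = 0.00494). The first was lost on leaving out Tet2KO replicate 3, WT replicate 2 or WT replicate 3, where the adjusted p reached 0.0764.

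Kdm6a (ENSMUSG00000037369.17, chromosome X, 18162575 to 18279936, 30 merged exons) was the gene called lower. It was at 74.5, 78.1 and 75.7 CPM in WT. It was at 65.9, 65.2 and 70.7 CPM in Tet2KO, 65.6, 64.2 and 65.5 in dKO and 67.5, 69.3 and 63.3 in Id1KO. The WT libraries lay above the other 9, and those 9 overlapped. Log2 fold changes over WT were -0.23 ± 0.041 in dKO, -0.18 ± 0.04 in Tet2KO and -0.19 ± 0.04 in Id1KO. Neither dKO versus Tet2KO (-0.05 ± 0.042) nor dKO versus Id1KO (-0.04 ± 0.041) was called.

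Kdm6a is known to escape X inactivation, and Uty is its relative on the Y chromosome. The Uty level was 48.3 ± 3.33 CPM in Tet2KO, 48.3 ± 0.91 in dKO and 44.6 ± 1.01 in Id1KO, but 30.0 ± 0.544 in WT. Xist, the RNA of the inactive X, was the other way round, at 10.8 ± 1.05, 16.7 ± 0.361 and 64.9 ± 4.28 CPM in those 3 groups and 262 ± 9.99 in WT. RNA of both sexes was thus present in every library, in proportions that went with the labels, and Kdm6a was highest where Xist was highest. With the counts of Kdm6a and Uty summed, the log2 fold change was 0.12 ± 0.032 in Tet2KO versus WT (adjusted p = 0.00559, edgeR), 0.07 ± 0.032 in Id1KO (adjusted p = 0.159) and 0.10 ± 0.032 in dKO (adjusted p = 0.0427), so the direction turned. The part of cell sex in the lower Kdm6a level was not tested further.

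**Figure D2:**
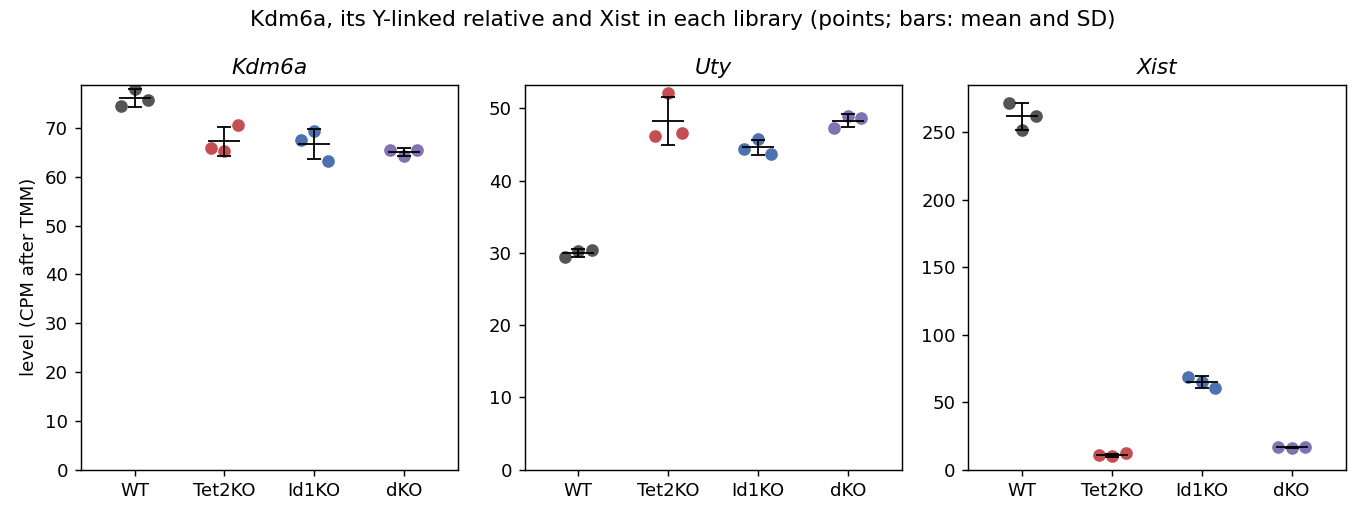
Levels (vertical axes, CPM after TMM scaling, from 0) of Kdm6a, Uty and Xist in each library (points) by genotype label, with the mean and SD of 3 libraries as bars. The WT libraries hold the highest Kdm6a and Xist and the lowest Uty levels.

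The Id1KO label came with smaller differences. Against WT, 0 of the 10 genes were called higher and 3 lower, where 15% of all genes were called, 7.26% higher and 7.77% lower. The same 3 had libraries that did not overlap (17.1% of all genes lower without overlap, 15.6% higher). They were Kmt2d (-0.23 ± 0.044, adjusted p = 0.00123 by edgeR), Kdm6a and Kmt2c (-0.15 ± 0.034, adjusted p = 0.00535). Of the other 7, log2 fold changes ran from -0.12 for Setd1b to 0.08 for Kmt2b. On the Tet2KO background (dKO versus Tet2KO), 0 were higher and 3 lower, with 26.4% of all genes called, 13.1% higher and 13.4% lower. The libraries of these 3 did not overlap (20.2% of all genes lower without overlap, 19.7% higher). They were Kmt2a (-0.16 ± 0.041), Crebbp (-0.15 ± 0.038) and Kmt2c (-0.13 ± 0.033). Kmt2c thus fell by 9.77% with the Id1-null label in the first comparison and fell by 8.79% in the second.

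In dKO versus WT, 8 of the 10 genes were called higher and Kdm6a lower, where 19.2% of all genes were called, 10.2% higher and 8.97% lower. Libraries did not overlap for 7 that were higher and for Kdm6a (16.7% and 16.5% of all genes). Setd1b (0.70 ± 0.084) and Kmt2d (0.59 ± 0.043) had the highest values, followed by Ep300 (0.37 ± 0.041), Kmt2a (0.34 ± 0.042), Kdm6b (0.32 ± 0.094), Crebbp (0.23 ± 0.038), Kmt2c (0.21 ± 0.034) and Kmt2b (0.17 ± 0.044). This comparison shares its WT libraries with Tet2KO versus WT. Kmt2b lost its call without WT replicate 3 or dKO replicate 1 (adjusted p up to 0.0618), and Kdm6b without WT replicate 2, WT replicate 3 or dKO replicate 2 (adjusted p up to 0.0959).

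The interaction, the difference between the Tet2 effect with and without the Id1-null label, was called for Kmt2d alone of the 10 genes, at 0.20 ± 0.061 with an adjusted p of 0.0346 by edgeR. Of all genes, 14.5% were called in the interaction, 7.46% higher and 7.03% lower. DESeq2 made the same call, but it was lost in 8 of 12 leave-one-out fits, with adjusted p-values up to 0.111. Setd1b had a value of similar size with a wider error (0.23 ± 0.121), and those of Kmt2a (-0.15 ± 0.058), Ep300 (-0.12 ± 0.057) and Crebbp (-0.12 ± 0.054) were negative. The effect of the Tet2KO label on these 5 genes was therefore not shown to differ between backgrounds, beyond the unstable call of Kmt2d.

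**Figure D3:**
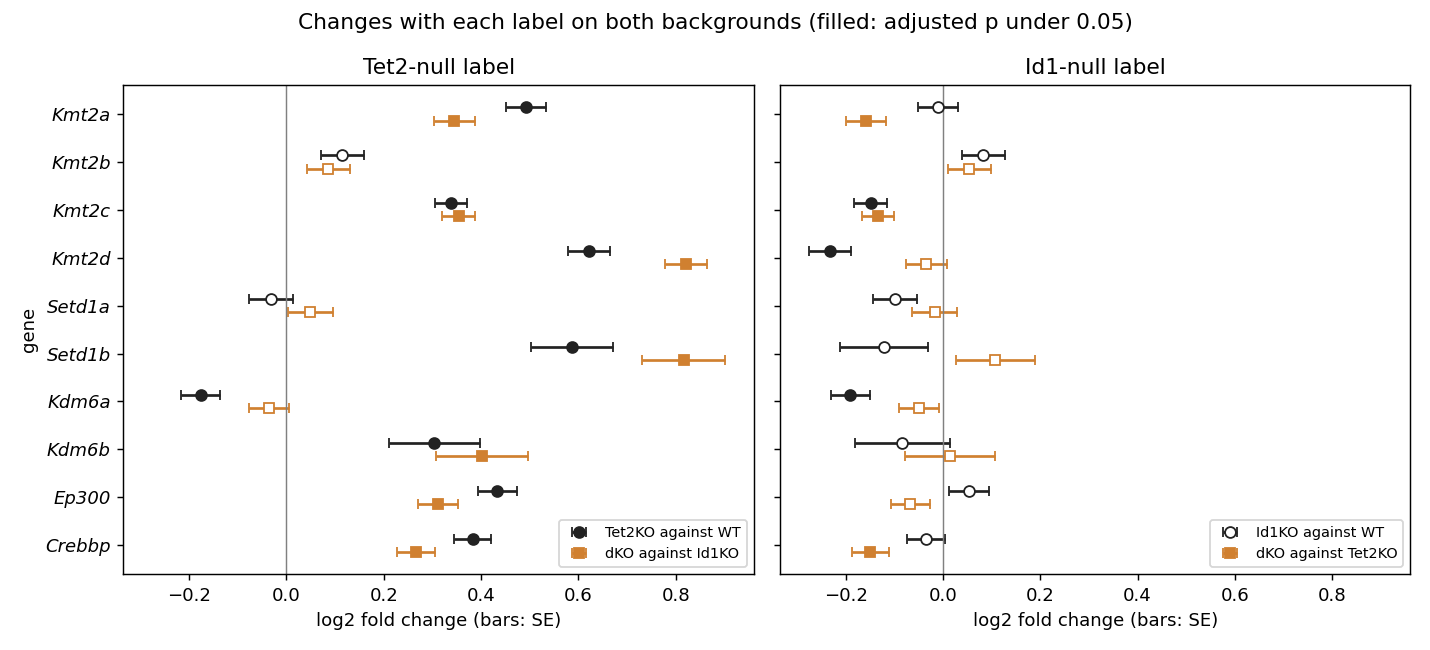
Log2 fold changes (horizontal axes) of the 10 genes (vertical axis) with the Tet2-null label (left) and the Id1-null label (right), each without (black circles) and with (orange squares) the other label. Bars are SE and filled symbols passed an adjusted p of 0.05. Kmt2d and Setd1b lie furthest to the right at left, from 0.59 to 0.82, and the values at right lie between -0.23 and 0.11.

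Libraries of a genotype differed across the genes. In WT, replicate 1 was the highest of its group for 9 of the 10 genes, and in Id1KO, replicate 3 was the lowest for 9. In dKO, replicate 2 was the lowest for 5 genes, Kmt2d and Setd1b among them, and the highest for 4. Leaving out each library in turn gave 7 to 9 calls of 10 in Tet2KO versus WT and 7 in dKO versus Id1KO. Shares of all genes called are not given here for these fits or for the stricter fit that follows. A stricter fit summed the 3 libraries of each genotype and took the Tet2 and Id1 labels as additive effects, which leaves 1 residual degree of freedom among 4 samples. In it Kmt2d (0.72, adjusted p = 0.000521, edgeR), Setd1b (0.70, 0.00222), Kmt2a (0.42, 0.00456), Ep300 (0.37, 0.00748), Kmt2c (0.35, 0.00897) and Crebbp (0.32, 0.0135) kept a call for the Tet2 label. Kdm6b (0.35, adjusted p = 0.137) and Kdm6a (-0.11, adjusted p = 0.465) lost theirs, and the Id1 label had 0 calls among the 10 genes (1 lower at an unadjusted p under 0.05).

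Levels were compared between genes only per kilobase of exon. In WT the highest were Setd1a (10.9 ± 0.862 CPM per kb) and Kmt2d (10.3 ± 0.643), which overlapped within their SD, then Kmt2b (9.15), Kdm6a (9.08) and Crebbp (8.88), which did not differ beyond their spread. Ep300 (7.65), Kmt2c (7.18) and Kmt2a (7.05) followed with overlapping ranges of mean ± SD, and Setd1b (2.1) and Kdm6b (1.69) stood apart at the bottom. In Tet2KO, Kmt2d led at 15.8 ± 0.0899 CPM per kb, ahead of Crebbp (11.6 ± 0.312), Setd1a (10.7 ± 0.108) and Ep300 (10.3 ± 0.438). Kmt2d also led in dKO (15.4 ± 0.902), followed by Setd1a (10.6), while in Id1KO Setd1a (10.2 ± 0.354) led and Kmt2d (8.74 ± 0.399) came after Kmt2b (9.69). Per length, Kmt2d therefore lay above Setd1a in both groups with a Tet2-null label and below it in Id1KO, while in WT the 2 genes overlapped.

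The 10 genes have long transcripts, from 6795 (Setd1a) to 20291 (Kmt2c) exonic bases, and length went with the changes. The 6 genes of at least 12 kb (Kmt2a, Kmt2c, Kmt2d, Setd1b, Ep300 and Crebbp) were all called higher with the Tet2KO label on both backgrounds, a limit set after the values were seen. Of the 4 shorter genes, Kdm6b was higher on both. Among all 679 other genes of at least 12 kb, 44.9% were higher and 8.98% lower in Tet2KO versus WT, with a median log2 fold change of 0.11, while 2873 short genes (83 to 2039 bases) had 7.59% higher, 15.2% lower and a median of -0.04. The 6 long members had a median of 0.46. In dKO versus Id1KO the median of the 679 genes was 0.07, with 30.6% higher, and that of the 6 members 0.35. With the trend on length removed from each library, an alternative added after the data were seen, no call of the 10 genes changed in the 6 contrasts, but in Tet2KO versus WT each of the 10 values was lower. Kmt2a then stood at 0.37, Kmt2d at 0.48, Setd1b at 0.50, Kmt2c at 0.19 and Kmt2b at 0.06. Among nuclear RNAs, Malat1 (-0.003 ± 0.029) and Neat1 (0.09 ± 0.048) were not called in Tet2KO versus WT, Kcnq1ot1 was higher (0.45 ± 0.034), and Meg3 was at 0 in the libraries of both groups.

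**Figure D4:**
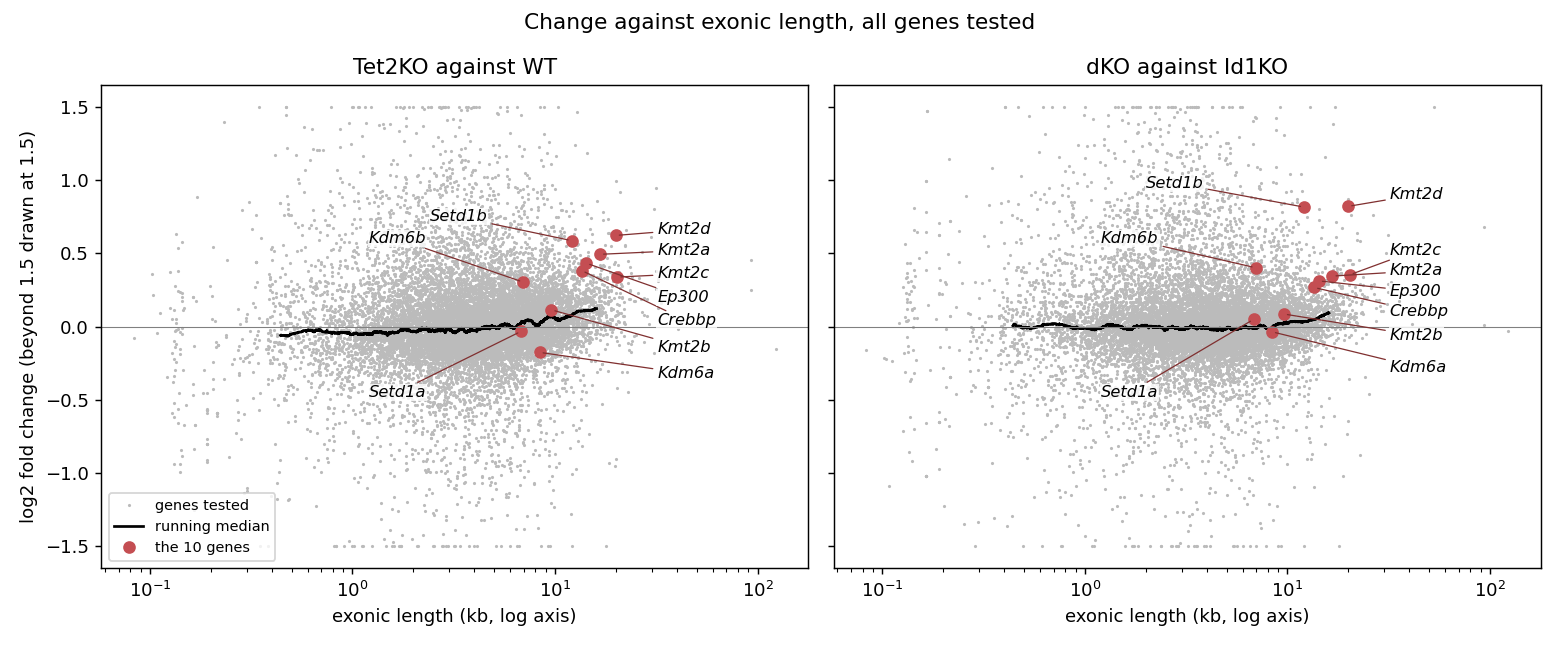
Log2 fold change (vertical axis, values beyond 1.5 drawn at 1.5) against exonic length (horizontal log axis, kb) for all genes tested (grey), a running median over genes ordered by length (black) and the 10 genes (red), in Tet2KO versus WT and dKO versus Id1KO. The running median rises at the long end, and Kmt2d, Setd1b and Kmt2a lie above it.

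Genes that work with these enzymes were followed in 9 lists of 95 genes, all of which were tested. In Tet2KO versus WT, 41 were called higher and 15 lower, with a median of 0.07, beside 16.6% and 16.2% of all genes. In dKO versus Id1KO the numbers were 22 and 8, beside 10.6% and 8.7%. These shares of all genes apply to the counts of each list below. Shares for the alternatives (length trend removed, libraries summed or DESeq2) are not given here. With the length trend removed, 26 were higher and 17 lower in Tet2KO versus WT, and 11 and 10 in dKO versus Id1KO. With libraries summed and additive effects, 8 were higher and 3 lower for the Tet2 label and 0 were called for the Id1 label (4 higher and 8 lower at an unadjusted p under 0.05).

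The list of COMPASS subunits held 13 genes, not all of which are shared by every complex. Of these 13, 2 (Ncoa6 and Hcfc1) were higher in Tet2KO versus WT and 3 were lower, with a median of -0.07. With the length trend removed, 1 was higher and 4 lower. Ncoa6, a coactivator found in the Kmt2c and Kmt2d complexes, went from 37.5, 31.6 and 31.0 CPM in WT to 43.7, 45.7 and 43.9 in Tet2KO. It rose by 0.41 ± 0.06 there and by 0.55 ± 0.063 in dKO versus Id1KO on the log2 scale. Psip1, a chromatin tether of Kmt2a, fell by 0.18 ± 0.031, and Ash2l and Dpy30, core subunits, fell by 0.11 ± 0.035 and 0.16 ± 0.047.

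Among other histone lysine methyltransferases 9 of 15 were higher and 1 lower in Tet2KO versus WT, and 6 were higher and 0 lower in dKO versus Id1KO. These counts became 6 and 2, and 1 and 1, with the length trend removed. Kmt2e, a relative of the Kmt2 genes that is not thought to methylate lysine 4 itself, went from 83.6, 77.8 and 79.9 CPM to 110, 111 and 111 (0.46 ± 0.031) and rose by 0.45 ± 0.033 on the Id1KO background. Ash1l (0.34 ± 0.04) and Nsd1 (0.20 ± 0.028), which modify lysine 36, rose in Tet2KO, and Kmt5a, the enzyme for lysine 20 of histone H4, fell by 0.09 ± 0.029. Of 11 other acetyltransferases 6 were higher and 3 lower. Kat6a (0.34 ± 0.042), its paralog Kat6b (0.32 ± 0.073) and the nuclear receptor coactivators Ncoa1, Ncoa2 and Ncoa3 (0.23 to 0.27) rose, whereas Kat8, which acetylates histone H4, fell by 0.18 ± 0.055. In dKO versus Id1KO, 3 of the 11 were higher and 1, Kat2b, lower, or 1 and 1 with the length trend removed.

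Of 16 genes for bromodomain readers, Mediator and SWI/SNF subunits, 9 were higher and 0 lower in Tet2KO versus WT, and 8 were higher and 1 lower in dKO versus Id1KO. With the length trend removed, 6 were higher and 1 lower in the first comparison and 4 and 1 in the second. Arid1a, a SWI/SNF subunit, was at 227, 240 and 248 CPM in Tet2KO and 232, 223 and 226 in dKO, compared with 196, 176 and 182 in WT and 175, 180 and 166 in Id1KO. It rose by 0.37 ± 0.039 and 0.39 ± 0.04 on the log2 scale in the 2 Tet2-null comparisons, and Med13l by 0.31 ± 0.031 and 0.19 ± 0.032.

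Of 6 H3K4 demethylase genes, Kdm5b (0.08 ± 0.03) was higher and Kdm5c (-0.15 ± 0.029) and Kdm1a (-0.09 ± 0.033) lower in Tet2KO versus WT, and 0 were called in dKO versus Id1KO (0 at an unadjusted p under 0.05 and 0 by DESeq2). In Tet2KO versus WT, DESeq2 called 0 of them higher and 1 lower, and with the length trend removed Kdm5b was at -0.044 and the counts were 0 and 2. That alternative called 1 lower in dKO versus Id1KO. Kdm5c was also called lower in Id1KO versus WT (-0.11 ± 0.029), but not in dKO versus WT (-0.06 ± 0.029). Xist was lower than in WT in each of these groups, and the part of cell sex in the Kdm5c change was not tested. Of the 4 Polycomb methyltransferase genes and their partners, Ezh1 rose by 0.14 ± 0.047 in Tet2KO, and 0 were called in dKO versus Id1KO by edgeR or DESeq2. At an unadjusted p under 0.05, 1 of the 4 was higher by edgeR, Ezh2 (0.10 ± 0.038). Among these 4 genes and Uty, edgeR called 2 higher in Tet2KO versus WT, Uty among them. DESeq2 called 1 higher there, and 1 was higher with the length trend removed, so at least 1 call was lost in each alternative.

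The elongation partners named for Kmt2a fusions were mixed, with 6 of 13 higher and 2 lower in Tet2KO versus WT, and 1 each way in dKO versus Id1KO. With the length trend removed, the first counts were 3 and 2. Aff4, a scaffold of the super elongation complex, was at 128, 123 and 131 CPM in Tet2KO and at 96.8 to 107 in the other 9 libraries (0.34 ± 0.035). Ell2, an elongation factor, fell from 23.9, 24.3 and 24 CPM in WT to 13.9, 16.1 and 16.2 in Tet2KO (-0.65 ± 0.069), and rose by 0.53 in dKO versus Tet2KO. Dot1l, the lysine 79 methyltransferase, rose by 0.18 ± 0.061 and 0.42 ± 0.06 in the 2 Tet2-null comparisons. The first had an adjusted p of 0.0298 by edgeR and libraries that overlapped (64.9, 53.3 and 53.4 CPM in WT, 65.0, 65.5 and 63.6 in Tet2KO).

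Of the 7 genes known as Kmt2a targets in leukemia, the Hoxa members were lower where Kmt2a was higher. Hoxa9 and Mecom are also in the list of stem cell genes given below. Hoxa9, a homeobox factor of stem and progenitor cells, was at 14.6, 14.6 and 12.3 CPM in Tet2KO and 12.6, 12.3 and 12.2 in dKO, compared with 23.9, 24.4 and 23 in WT and 23.1, 23.6 and 23.4 in Id1KO. It fell by 0.78 ± 0.065 and 0.92 ± 0.067 on the log2 scale, and Hoxa7 by 0.47 ± 0.092 and 0.77 ± 0.095. Hoxa10 fell by 1.03 ± 0.357 and 1.29 ± 0.356, but it was barely expressed, so these values rest on few counts. Its highest level was 1.29 CPM (WT replicate 2) and its lowest 0.295 (dKO replicate 3). Meis1, the DNA-binding partner of Hoxa9, went the other way in Tet2KO (59.7 ± 1.91 CPM against 46.0 ± 2.15 in WT, 0.38 ± 0.044) but not in dKO versus Id1KO (50.3 ± 1.1 against 49.2 ± 1.58). Its interaction was -0.34 ± 0.063 with an adjusted p of 0.00088 by edgeR. Cdk6, a G1 kinase, rose by 0.25 ± 0.032 and 0.27 ± 0.032.

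Of 9 factors that recruit Ep300 or Crebbp, 4 were higher in Tet2KO versus WT: Creb1 (0.12 ± 0.03) and its coactivators Crtc1, Crtc2 and Crtc3 (0.21 to 0.26). Myb, which binds both acetyltransferases in blood progenitors, was lower by 0.11 ± 0.024 there and by 0.15 ± 0.024 in dKO versus Id1KO, where it was the 1 of the 9 called. With the length trend removed, 1 of the 9 was higher and 1 lower in Tet2KO versus WT.

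**Figure D5:**
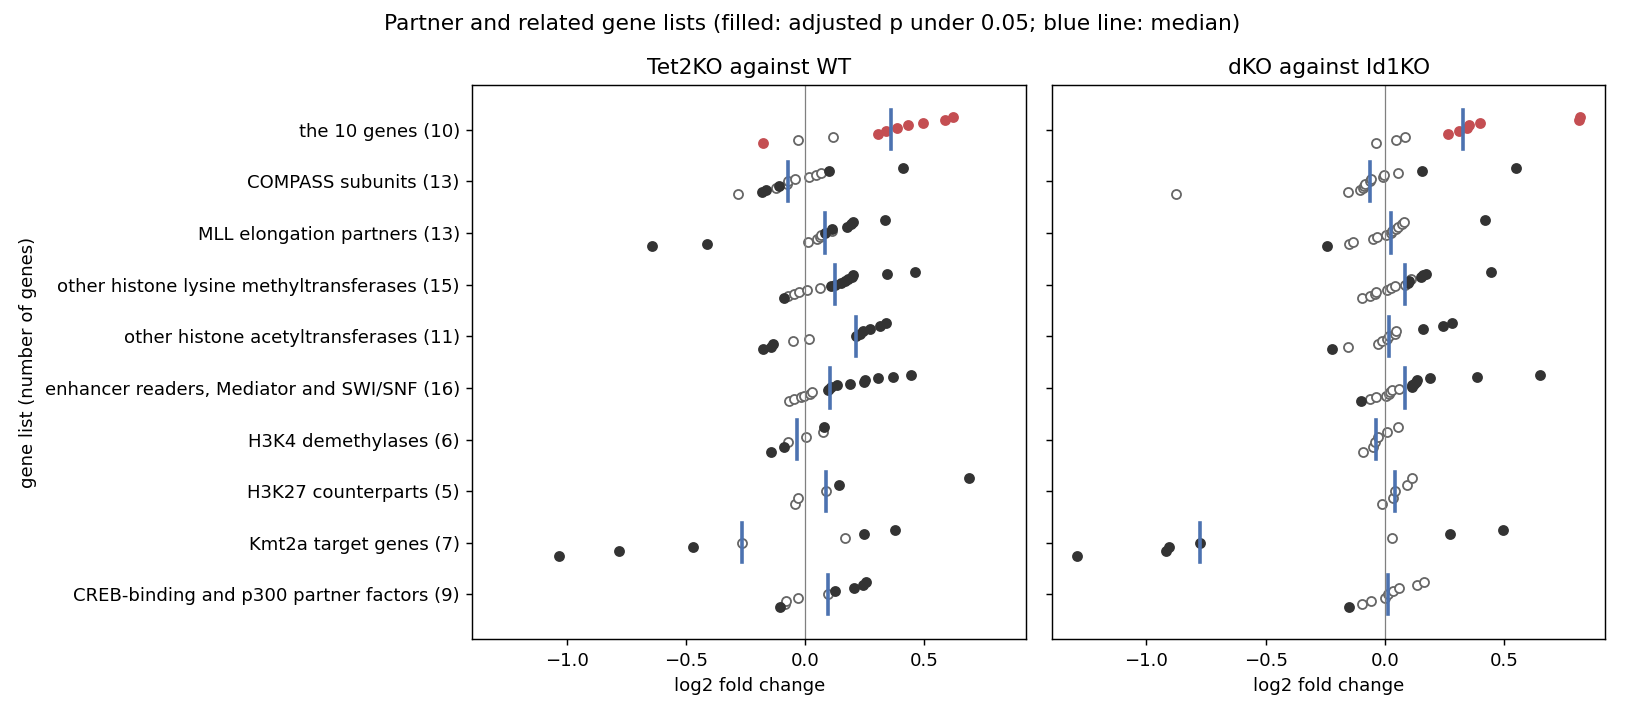
Log2 fold changes (horizontal axes) of the 10 genes (red) and of the genes of 9 related lists (dark; number of genes in brackets) in Tet2KO versus WT and dKO versus Id1KO. Filled points passed an adjusted p of 0.05 and blue lines are medians, which lie at 0.36 and 0.33 for the 10 genes and at -0.27 and -0.77 for the Kmt2a target genes.

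With the Id1-null label on the Tet2KO background, 13 of the 95 genes were higher and 24 lower, beside 13.1% and 13.4% of all genes. Among the lower were Aff3 (-0.35), Arid1b (-0.24), the acetyltransferase Kat2b (-0.23), the methyltransferase Setd7 (-0.19) and Meis1 (-0.25), and among the higher Ell2 and the Polycomb subunit Eed (0.16). These numbers share the Tet2KO libraries with Tet2KO versus WT. In Id1KO versus WT, 11 were higher and 7 lower, beside 7.26% and 7.77%.

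The genes whose levels followed the mean of the 10 most closely over the 12 libraries were Slc29a3 (Pearson's r = 0.994), Arid1a (0.993), Zfp609 (0.989), Cbl (0.988) and Tet3 (0.987), among 7366 genes compared. The 12 points share their library and their genotype, so r mainly reflects the gap between groups and is given as a description. Slc29a3 encodes a nucleoside transporter, Zfp609 a zinc finger protein, Cbl a ubiquitin ligase that restrains Kit signalling, and Tet3 a paralog of Tet2. The Tet3 level was 182 ± 2.86 CPM in Tet2KO and 169 ± 6.45 in dKO, compared with 136 ± 8.4 in WT and 129 ± 4.66 in Id1KO.

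Cell type markers also moved with the labels, and their part in the differences above was not tested. The summed level of 10 erythroid genes was 576 to 586 CPM in Tet2KO and 925 to 942 in dKO, compared with 902 to 946 in WT and 1060 to 1100 in Id1KO. Of these 10 genes, 9 were lower in Tet2KO versus WT and 9 higher in dKO versus Tet2KO. In dKO versus WT, 5 were higher and 1 lower, and in dKO versus Id1KO 4 were higher and 3 lower. The summed level of 10 neutrophil genes was 15500 to 15800 CPM in Tet2KO, 11600 to 12800 in dKO, 14100 in WT and 11800 to 12800 in Id1KO. Of the 9 neutrophil genes tested, 5 were higher and 2 lower in Tet2KO versus WT, and 3 each way in dKO versus WT. In dKO versus Id1KO, 4 were higher and 1 lower. The summed level of 7 monocyte and dendritic genes was 808 to 815, 814 to 840, 738 to 756 and 651 to 653 CPM in Tet2KO, dKO, WT and Id1KO. Of the 6 of these genes that were tested, 3 were higher and 1 lower in Tet2KO versus WT, 2 each way in dKO versus WT, and 3 higher and 0 lower in dKO versus Id1KO. Sums of 8 stem cell genes were 403 to 413, 322 to 331, 387 to 393 and 328 to 333 CPM in that order, and those of 8 lymphoid genes 45.6 to 50.2, 26.7 to 29.5, 37 to 41.5 and 25.1 to 27.9, with Cd3e at 0 in all dKO libraries. Cd34 made up most of the stem cell sum, at 279 to 370 CPM over all libraries. Of 7 stem cell genes tested, 3 were higher and 1 lower in Tet2KO versus WT, and 1 higher and 4 lower in dKO versus WT. Of 7 lymphoid genes tested, 4 were higher and 0 lower in the first comparison, and 0 higher and 1 lower in the second. The 6 megakaryocyte genes summed to 220 to 232 CPM in Id1KO and 154 to 173 in the other groups, with 3 higher and 0 lower in Id1KO versus WT. The 7 mast cell, basophil and eosinophil genes summed to 347 to 353, 302 to 308, 377 to 391 and 469 to 473 in Tet2KO, dKO, WT and Id1KO. Of these 7, 3 were higher and 3 lower in Tet2KO versus WT, and 1 higher and 4 lower in dKO versus WT.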

How the data were processed

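The authors deposited 1 table of expected counts per gene for 12 libraries and 55450 genes, not normalized. Libraries were stranded total RNA without ribosomal RNA, made from RNA of a Qiagen micro column, per the labels' protocols. STAR, RSEM and the build mm10 are named in the submitters' processing notes, without versions; the strand setting is not given in the sources used here. Between 4.92% and 5.26% of genes per library had values that are not whole, as RSEM splits reads among similar genes, and values were rounded. All identifiers matched GENCODE M21 (GRCm38), from which positions, merged exonic lengths and overlaps were taken.

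Libraries were grouped by genotype label. Genes with a minimum count of 10 (filterByExpr) were kept, scaled by TMM and fitted in edgeR 4.0.16 with 1 mean per genotype over all 12 libraries. The quasi-likelihood F-tests were two-sided, with Benjamini-Hochberg adjustment over all genes tested, and were called under 0.05. The fit also gave each standard error, and CPM are per 1000000 counts of the scaled library. The members and lists were chosen with earlier results of these data known. Named list genes had the highest or lowest log2 fold change in Tet2KO versus WT or dKO versus Tet2KO among genes called with at least 5 CPM and no overlap of libraries; others named in the text were chosen after their values were seen. Of the genes in these lists, 2 are counted but not reported by name here. Genes like the 10 were the 5 with the highest Pearson's r of log2(CPM + 0.5), among genes with at least 20 CPM. Similar genes were sought with blast 2.17.0 at 95% identity over 100 bp. Alternatives were other scalings (RLE, upper quartile, or TMM with mitochondrial and small RNA genes left out), DESeq2 1.42.0, no filter on counts, fits of the compared groups alone, the replicate number as a block, leave-one-out fits, libraries summed per genotype, and removal of a length trend, which was added after the data were seen. The code was tested on simulated data. R 4.3.3, Python 3.11.15 and matplotlib 3.10.9 were used.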

Additional observations from a re-analysis of the deposited data

Results flagged for a closer look

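The interaction between the Tet2-null and Id1-null labels, a test of the difference itself, was called for Kmt2d and Uty, and the first call depends on single libraries. For Kmt2d the interaction was 0.198 on the log2 scale (SE 0.061, adjusted p = 0.0346 by edgeR's quasi-likelihood test), since its level rose by 0.62 without and by 0.82 with the Id1-null label. The call was lost in 8 of 12 fits that left out 1 library. For Uty, the Y-linked relative of Kdm6a, the interaction was -0.57 (SE 0.069, adjusted p = 1.14e-05, edgeR). Over WT it was higher by 0.69 with each Tet2-null label and by 0.57 with Id1KO, and Xist was lower than WT in all 3 groups. RNA of both sexes was present in proportions that went with the labels, so sex and the response of Uty to a label cannot be told apart.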

How the results depend on the processing

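Over all alternatives, 1172 values of the 10 genes kept direction and side of the threshold, 32 lost a call, 17 gained one and 19 changed sign. In the fit of summed libraries each label has 1 additive value, which is counted here for both comparisons of that label. With libraries summed and additive effects, members called were 0 in Id1KO versus WT, 2 in dKO versus WT (Kmt2d and Setd1b) and 0 in dKO versus Tet2KO. List genes called were then 11 for the Tet2 label, 0 for the Id1 label and 3 in dKO versus WT; fewer samples are compared there. Without a filter the interaction called 2 members. Leaving out 1 library gave 7 to 9 members in Tet2KO versus WT, 3 to 4 in Id1KO versus WT, 7 to 9 in dKO versus WT, 3 in dKO versus Tet2KO, 7 in dKO versus Id1KO and 0 to 2 in the interaction. Without WT replicate 1 the interaction called Kmt2a and Crebbp, and without dKO replicate 2 Kmt2a and Kmt2d. For list genes the ranges, in the same order, were 43 to 58, 11 to 20, 22 to 30, 27 to 39, 23 to 29 and 15 to 21. The 11 came without Id1KO replicate 3, and the 15 without Tet2KO replicate 3.

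These values changed sign, 2 of which had been called higher (Kdm5b in Tet2KO versus WT and Kdm5c in dKO versus Tet2KO). With libraries summed they were Setd1a in Tet2KO versus WT (0.006), Ep300 in Id1KO versus WT (-0.008), and in dKO versus Tet2KO Setd1b (-0.006), Kdm6b (-0.035) and Kdm5c (-0.014). Each of these is the additive value of a label over both backgrounds, not a fit of that comparison alone. With the length trend removed they were Kdm5b in Tet2KO versus WT (-0.044), Kmt2d in dKO versus Tet2KO (0.01) and Kmt2b in the interaction (0.001). Leave-one-out fits ran from -0.09 to 0.02 for Setd1a in Tet2KO versus WT and from -0.109 to 0.001 in dKO versus WT. In Id1KO versus WT they ran from -0.037 to 0.052 for Kmt2a, -0.202 to 0.013 for Kdm6b and -0.061 to 0.019 for Crebbp. In dKO versus Tet2KO they ran from -0.06 to 0.012 for Kmt2d and -0.014 to 0.046 for Kdm6b, and in the interaction from -0.081 to 0.005 for Kmt2b and -0.025 to 0.046 for Kmt2c. The cause was not tested.

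The replicate block called 9 members in Tet2KO versus WT and dKO versus WT, 3 in Id1KO versus WT and dKO versus Tet2KO, 7 in dKO versus Id1KO and 1 in the interaction. Shares of all genes called in the alternative fits are not given here, so the counts from these fits are not set against such a share. The numbers do not pair the libraries: same-numbered libraries correlated at -0.347 to 0.134 in their deviations, and 4 of 12 matched their own number best. Counts of 177 to 281 make Kdm6b the least precise of the 10 genes.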
